A study of Rattus norvegicus with 20 samples.

Results

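The Cyp2 genes outside the Cyp2a, Cyp2b and Cyp2c subfamilies were followed in rat liver across 4 dose groups of PBDE-47, a brominated diphenyl ether once used as a flame retardant, to ask how selective the rise of cytochrome P450 transcripts was. The members were all probe sets on the array that carry 1 gene symbol beginning with Cyp2d, Cyp2e, Cyp2f, Cyp2j, Cyp2r, Cyp2s, Cyp2t or Cyp2u. The rule uses only the symbol and no measured value, though the subfamilies were singled out with earlier results of these data known. This gave 13 probe sets of 11 genes, out of 31042 probe sets tested. Cyp2d had 4 probe sets of 3 genes, Cyp2j had 4 probe sets of 3 genes, and Cyp2e1, Cyp2f4, Cyp2s1, Cyp2t1 and Cyp2u1 had 1 each. The gene IDs of 13 of 13 probe sets were found in the RefSeq gene table. Cyp2r1, Cyp2j16, Cyp2d1 and Cyp2d5 have no probe set of their own under this rule and were not analysed as members. Cyp2d1 and Cyp2d5 share a probe set outside the rule, which is given after Cyp2d3.

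Liver came from Wistar Han rats at postnatal day 4, labelled female, and each group had 5 arrays. Dams aged 11 to 12 weeks when received at gestation day 2 were given corn oil alone (vehicle) or corn oil with PBDE-47 at 0.1, 15 or 50 mg/kg per day, by gavage in 5 mL/kg, between gestation day 6 and postnatal day 4. The labels do not say whether a liver was a dam's or a pup's, nor which arrays share a litter or an animal, so p-values reflect only how far these samples differ, a spread that may be technical. The series' own comparison was each dose against vehicle.

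Cytochrome P450 enzymes of family 2 are membrane-bound monooxygenases of the endoplasmic reticulum that take electrons from cytochrome P450 reductase and, for some reactions, from cytochrome b5. In rodent liver the Cyp2b genes, and some Cyp2a and Cyp2c genes, are classic targets of foreign chemicals that act through the nuclear receptors CAR and PXR. Other Cyp2 enzymes are better known for other substrates: Cyp2d for basic drugs, Cyp2e1 for ethanol, acetone and small solvents, Cyp2j for arachidonic acid, and Cyp2u1 for long-chain fatty acids.

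The starts of 4 of the genes are shown because the results turn on them: Cyp2d4 holds the probe set that passed the test at the highest dose, Cyp2e1 is the textbook liver enzyme of the group, and Cyp2j3 and Cyp2j4 varied together. Each sequence is 250 bases before to 50 bases after the RefSeq gene start in the GRCr8 assembly, read 5′ to 3′ on the gene's strand. Capitals mark exact matches, on either strand, to AGGTCA or AGTTCA (half-sites that nuclear receptors can bind), GTTAAT (a half-site of hepatocyte nuclear factor 1) or TATAAA (the core of the TATA box).
Cyp2d4 at chr7:115771772-115772071, minus strand: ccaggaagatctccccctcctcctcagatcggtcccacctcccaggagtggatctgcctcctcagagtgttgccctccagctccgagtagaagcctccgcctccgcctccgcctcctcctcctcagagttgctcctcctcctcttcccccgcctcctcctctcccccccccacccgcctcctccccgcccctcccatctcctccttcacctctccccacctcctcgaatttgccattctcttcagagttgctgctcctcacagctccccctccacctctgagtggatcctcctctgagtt
Cyp2e1 at chr1:205269717-205270016, plus strand: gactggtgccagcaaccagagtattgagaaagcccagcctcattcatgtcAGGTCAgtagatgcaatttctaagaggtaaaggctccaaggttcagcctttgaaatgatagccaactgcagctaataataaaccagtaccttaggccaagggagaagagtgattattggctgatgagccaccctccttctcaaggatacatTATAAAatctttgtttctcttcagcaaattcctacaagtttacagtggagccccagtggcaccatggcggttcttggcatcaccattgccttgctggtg
Cyp2j3 at chr5:116360450-116360749, minus strand: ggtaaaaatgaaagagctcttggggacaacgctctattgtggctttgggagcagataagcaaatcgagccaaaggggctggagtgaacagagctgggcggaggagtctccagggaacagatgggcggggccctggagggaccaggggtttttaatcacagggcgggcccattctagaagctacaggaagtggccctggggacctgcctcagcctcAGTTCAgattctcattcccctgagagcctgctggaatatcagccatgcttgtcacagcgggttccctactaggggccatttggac
Cyp2j4 at chr5:116322993-116323292, minus strand: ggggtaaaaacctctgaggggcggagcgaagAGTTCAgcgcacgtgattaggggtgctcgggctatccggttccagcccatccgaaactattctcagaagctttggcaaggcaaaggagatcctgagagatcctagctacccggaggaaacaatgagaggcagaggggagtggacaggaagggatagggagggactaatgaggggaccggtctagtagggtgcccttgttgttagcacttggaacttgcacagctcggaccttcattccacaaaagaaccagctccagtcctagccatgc

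The Cyp2d4 window held 0 of these motifs. Cyp2e1 held AGGTCA, whose first base lies at -200 from the start, and TATAAA at -49. AGTTCA lay at -35 in Cyp2j3 and at -219 in Cyp2j4. Of 33469 RefSeq rat promoter windows of this length, 16.2% held AGGTCA, 14.5% AGTTCA, 7.45% GTTAAT and 14.2% TATAAA, so any of these matches is common. A pair of AGGTCA or AGTTCA half-sites in the same orientation, 3 or 4 bases apart, was in 0.0598% of all windows and in 0 of the members' windows. The Cyp2j3 and Cyp2j4 windows were identical at 50.6% of aligned columns, within the range of 47.3% to 51.7% over the pairs compared within Cyp2d and within Cyp2j. No windows of unrelated genes were aligned, so these percentages do not show whether the windows are alike. A match is only a string of letters here, and no binding was measured.

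The tissue check was clear for hepatocytes. Alb, which encodes albumin, ranged over the 20 arrays from 14.73 to 14.82 log2 units, near the top of the scale at 14.82. Afp, the fetal relative of albumin, ranged from 14.21 to 14.34. H19, listed with Afp among the markers of hepatocyte maturation followed below, ranged from 13.99 to 14.22. Whether these levels tell a pup's liver from a dam's was not tested. Array medians were 5.605 to 5.648, and the number of arrays limits the precision. Transcripts of other tissues differed between arrays: the mean of 11 measured skeletal muscle markers ranged from 4.84 to 8.14 at 50 mg/kg and from 4.54 to 9.64 in vehicle, and the mean of 12 exocrine pancreas markers from 4.47 to 4.60 at 50 mg/kg and from 4.46 to 4.54 in vehicle. At 0.1 and 15 mg/kg the muscle mean reached 9.96 and 9.99, and the pancreas mean 7.28 and 7.29. The median muscle mean was 4.81 in vehicle, 7.85 at 0.1 mg/kg, 5.09 at 15 mg/kg and 6.76 at 50 mg/kg. Arrays with either mean more than 2 log2 units above its lowest array were counted as raised. These were 1 of 5 in vehicle, 4 of 5 at 0.1 mg/kg, 2 of 5 at 15 mg/kg and 3 of 5 at 50 mg/kg, so the groups were not balanced. Airway and lung markers, of interest because Cyp2f and Cyp2s enzymes are known from airways, stayed between 3.73 and 4.53 as an array mean.

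At 50 mg/kg per day, 1 of the 13 probe sets rose (Cyp2d4, 1.22-fold), 0 fell and 12 did not pass the test. The test was limma over all 31042 probe sets with a threshold of 0.05 on the adjusted p. Over all probe sets, 0.934% passed it in this comparison and 0.586% passed it as higher. By contrast, 4 of 13 Cyp2a, Cyp2b and Cyp2c probe sets rose: Cyp2c7 by 3.21 log2 units, Cyp2a3 by 2.84, Cyp2c6v1 by 1.80 and Cyp2c11 by 0.79. The Cyp2b genes among these 13 were Cyp2b3, Cyp2b12 and Cyp2b21. Cyp2b1 and Cyp2b2 have no single-symbol probe set and were not part of this comparison. The changes of the 13 other Cyp2 probe sets lay between -0.10 and 0.41 log2 units, and 0 of them were at least 1.5-fold higher, against 5 of 13 for Cyp2a, Cyp2b and Cyp2c. Over all probe sets 0.573% were, so a count of 0 among 13 is no result about these members.

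The intervals bounded these changes for some members only. In 9 of 13 the upper end of the 95% interval at 50 mg/kg was under 1.5-fold, beside 95.5% of all probe sets. The members not so bounded were Cyp2t1, Cyp2d3, Cyp2j4 and 1 of the Cyp2j3 probe sets, where a rise of 1.5-fold lies inside the interval. At 50 mg/kg 9 of 13 were higher than in vehicle, beside 53% of all probe sets. An unadjusted p under 0.05 was found for 4 of 13, all higher, beside 13% of all probe sets in either direction and 6.89% higher. The median log2 change of the members was 0.23 at 50 mg/kg, 0.16 at 15 mg/kg and 0.086 at 0.1 mg/kg, beside 0.009, 0.013 and 0.008 for all probe sets.

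**Figure D1:**
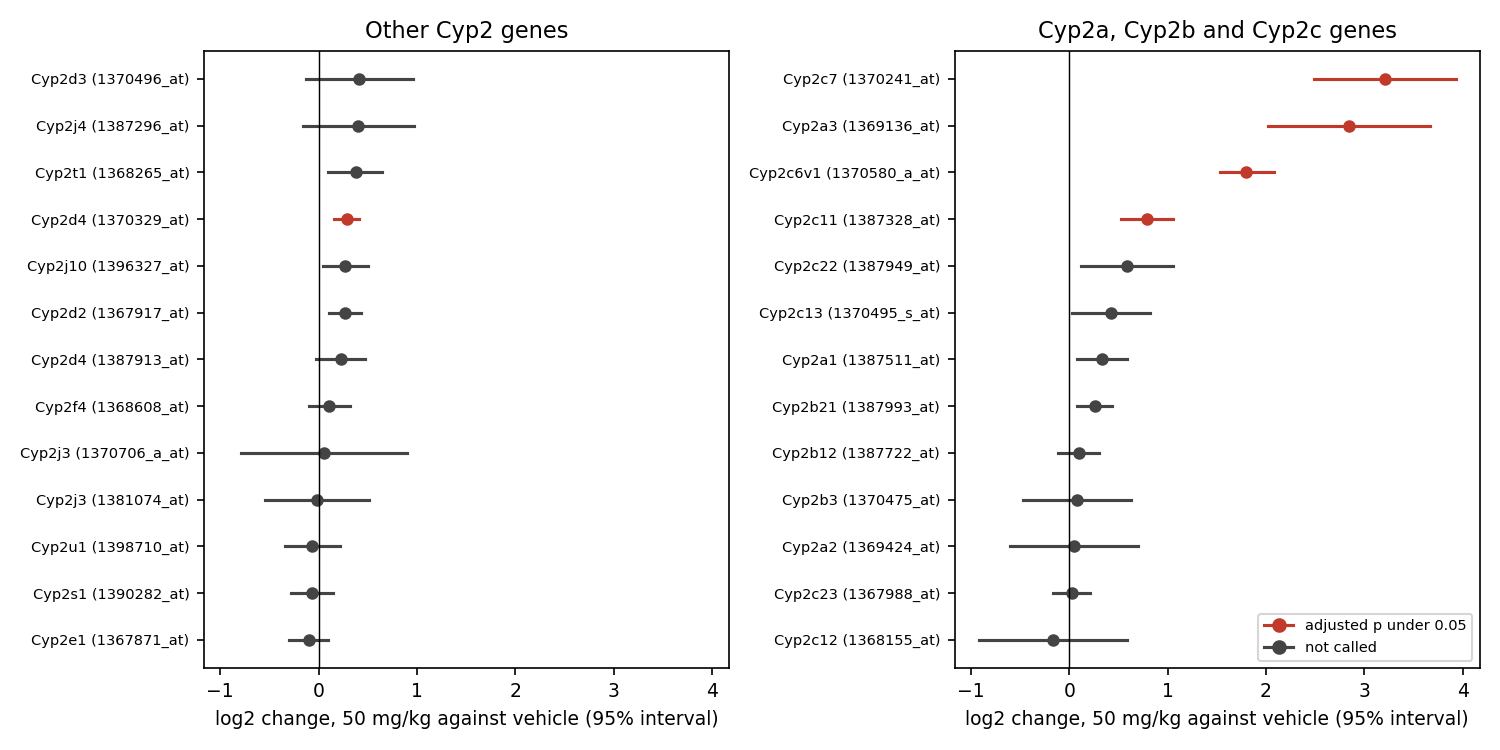
Log2 change at 50 mg/kg against vehicle with its 95% interval from limma (n = 5 per group), for the 13 other Cyp2 probe sets (left) and the 13 Cyp2a, Cyp2b and Cyp2c probe sets (right), in red where the adjusted p was under 0.05. The other Cyp2 changes lie between -0.10 and 0.41, while the Cyp2a, Cyp2b and Cyp2c changes reach 3.21.

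At 15 mg/kg 0 of 13 passed, where 0.116% of all probe sets did and 5 of 13 Cyp2a, Cyp2b and Cyp2c probe sets rose. At 0.1 mg/kg 0 of 13 passed, and the share over all probe sets was also 0%. At each of these doses 1 of the 13 had an unadjusted p under 0.05, near the background of 12.1% of all probe sets at 15 mg/kg and 6.87% at 0.1 mg/kg. Between 50 and 0.1 mg/kg, a comparison without the vehicle arrays, 0 of 13 passed and 1 had an unadjusted p under 0.05, beside 0.644% and 8.89% of all probe sets. A slope over the dose order (equal steps from vehicle to 50 mg/kg) was called for 1 of 13, again Cyp2d4, and for 1.45% of all probe sets.

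The difference between each member and the Cyp2a, Cyp2b and Cyp2c genes was tested directly, by subtracting on each array the mean over their 13 probe sets. In the 50 mg/kg comparison 10 of 13 members changed less than that mean, and 5 of 13 when the arrays with raised muscle or pancreas markers were left out. This is not particular to them, since 97.8% of all probe sets were called in the same test. A few genes carry that mean: 7 of the 13 Cyp2a, Cyp2b and Cyp2c probe sets were themselves called below it, and 3 above. The difference was -0.90 log2 units for Cyp2e1 (SE 0.15, adjusted p = 1.22e-05) and -0.51 for the called Cyp2d4 probe set (SE 0.15, adjusted p = 0.00208). Cyp2d3, Cyp2j4 and 1 Cyp2j3 probe set did not pass, with differences of -0.38 (95% interval -0.90 to 0.13), -0.39 (-0.93 to 0.15) and -0.74 (-1.50 to 0.022).

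Of the 4 Cyp2d probe sets, 1 passed at 50 mg/kg, beside 0.934% of all probe sets. Cyp2d4 is the rat Cyp2d form best known from brain. Its probe set 1370329_at had, in the order of the replicate numbers as for all members, values of 7.25, 7.31, 7.41, 7.20 and 7.26 log2 units in vehicle livers, 7.42, 7.59, 7.47, 7.43 and 7.42 at 0.1 mg/kg, 7.32, 7.51, 7.30, 7.42 and 7.45 at 15 mg/kg, and 7.44, 7.67, 7.55, 7.57 and 7.62 at 50 mg/kg. All 5 arrays at 50 mg/kg and all 5 at 0.1 mg/kg lay above all 5 vehicle arrays, while the 15 mg/kg arrays overlapped with vehicle. Groups that did not overlap were found for 1 of 13 members at 50 mg/kg, 0 at 15 mg/kg and 1 at 0.1 mg/kg, beside 2.96%, 2.32% and 1.24% of all probe sets. The log2 change was 0.29 at 50 mg/kg (SE 0.061, 95% interval 0.16 to 0.41, adjusted p = 0.0292). It was 0.11 at 15 mg/kg (adjusted p = 0.465) and 0.18 at 0.1 mg/kg (adjusted p = 0.586), so the means were not in the order of the doses. The slope was 0.079 log2 units per dose step (SE 0.019, adjusted p = 0.0454), and with each array left out in turn 0 members had a called slope in 12 of 20 fits.

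The call for Cyp2d4 was close to the threshold. It was lost when any one was left out of the vehicle replicates 1, 2, 4 and 5 and the 50 mg/kg replicates 2, 3, 4 and 5, and with only the vehicle and 50 mg/kg arrays in the fit (adjusted p = 0.117). Leaving out the 10 of 20 arrays with raised muscle or pancreas markers, the change was 0.36 (adjusted p = 0.477), in a fit that kept 2 arrays at 50 mg/kg and 4 in vehicle and called 3 probe sets in all. Over the 30 fits run its change stayed between 0.26 and 0.36. The other Cyp2d4 probe set, 1387913_at, had 5.35, 5.29, 5.65, 5.60 and 5.76 log2 units in vehicle livers, 5.70, 5.75, 5.94, 5.46 and 5.93 at 0.1 mg/kg, 5.68, 5.76, 5.43, 5.60 and 5.64 at 15 mg/kg, and 6.12, 5.75, 5.42, 5.73 and 5.76 at 50 mg/kg. The groups overlapped. It averaged 5.53 ± 0.20 in vehicle, 5.76 ± 0.20 at 0.1 mg/kg, 5.62 ± 0.12 at 15 mg/kg and 5.76 ± 0.25 at 50 mg/kg (SD, n = 5 each). Its change at 50 mg/kg was 0.23 (95% interval -0.024 to 0.47, adjusted p = 0.443), in the same direction but not past the test.

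Cyp2d2, the rat enzyme that hydroxylates debrisoquine, was bright on every array. It had 13.08, 13.34, 13.12, 13.17 and 13.41 log2 units in vehicle livers, 13.37, 13.51, 13.21, 13.29 and 13.43 at 0.1 mg/kg, 13.51, 13.32, 13.43, 13.49 and 13.57 at 15 mg/kg, and 13.40, 13.40, 13.52, 13.59 and 13.55 at 50 mg/kg. The group means went up with each dose, at 13.22 ± 0.14, 13.36 ± 0.12, 13.47 ± 0.09 and 13.49 ± 0.09 (SD, n = 5 each), but 1 vehicle array exceeded the lowest arrays at 50 mg/kg. The change was 0.27 at 50 mg/kg (SE 0.076, 95% interval 0.11 to 0.43, adjusted p = 0.0999) and 0.25 at 15 mg/kg (adjusted p = 0.218), and neither passed. Its slope of 0.092 per dose step (SE 0.024, adjusted p = 0.0608) lay just outside the threshold, and passed when array medians were made equal.

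Cyp2d3 was variable. Its values were 7.12, 8.33, 7.86, 7.38 and 7.97 in vehicle livers, 7.92, 7.10, 7.56, 7.90 and 8.90 at 0.1 mg/kg, 8.35, 7.97, 7.98, 8.37 and 7.65 at 15 mg/kg, and 7.85, 8.36, 8.06, 8.44 and 8.00 at 50 mg/kg. All groups overlapped, with the highest array of all at 0.1 mg/kg. The change of 0.41 at 50 mg/kg, the largest of the 13, had a 95% interval of -0.13 to 0.96 (adjusted p = 0.542). Over the 30 fits run it lay between 0.26 and 0.60. A further probe set carries the symbols Cyp2d5 and Cyp2d1, and so stands for no single gene. It averaged 11.88 ± 0.46 at 50 mg/kg and 12.02 ± 0.86 in vehicle (SD, n = 5 each). It did not pass either (log2 change -0.14, adjusted p = 0.902).

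**Figure D2:**
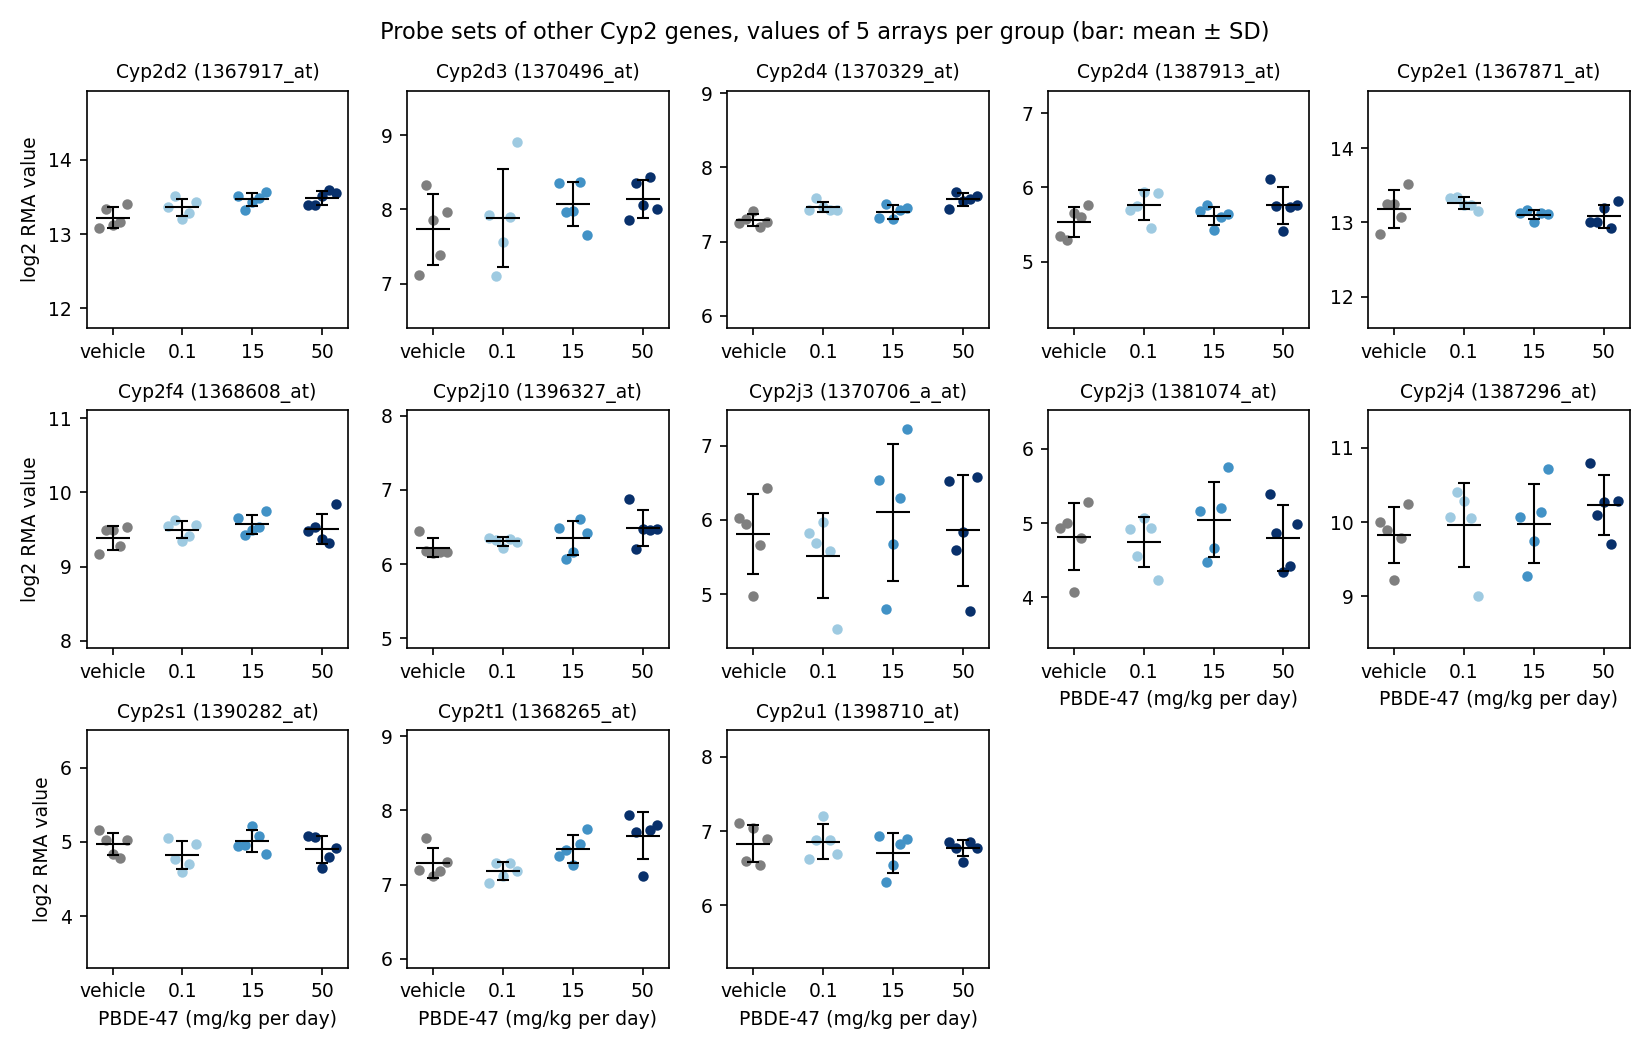
Log2 values of the 13 probe sets on each array, by dose (x axis, mg/kg per day), with each group's mean and SD as a black bar; every panel spans 3.2 log2 units. The Cyp2d4 probe set 1370329_at shows no overlap between 50 mg/kg and vehicle, and the Cyp2j3, Cyp2j4 and Cyp2d3 panels show the widest scatter within groups.

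Cyp2e1, which oxidizes ethanol, acetone and small solvents and normally comes on in rodent liver around birth, gave a bright signal on every array that did not follow the dose in the test. It had 12.84, 13.25, 13.25, 13.07 and 13.51 log2 units in vehicle livers, 13.33, 13.34, 13.24, 13.23 and 13.15 at 0.1 mg/kg, 13.13, 13.16, 13.00, 13.12 and 13.11 at 15 mg/kg, and 13.01, 13.00, 13.19, 12.92 and 13.29 at 50 mg/kg. Every dosed array lay inside the range of the vehicle arrays. The change at 50 mg/kg was -0.10 (SE 0.10, 95% interval -0.30 to 0.10, adjusted p = 0.722), so a change beyond 1.07-fold up or to below 0.81-fold lies outside the interval. RMA compresses bright probe sets, and folds at this level may be understated.

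Genes that act near Cyp2e1 in metabolism were followed at the same dose. Of 9 measured genes of alcohol, ketone and small-molecule oxidation, 2 rose, 1 fell and 6 did not pass at 50 mg/kg. Their median change was 0.10. The share of all probe sets that passed at this dose was 0.934%. Gstt2 and Gstt1, theta-class glutathione transferases, rose by 0.54 (adjusted p = 0.00339) and 0.37 (adjusted p = 0.0476), and Aldh1b1, a mitochondrial aldehyde dehydrogenase, fell by 0.51 (adjusted p = 0.0456). In limma 0 of the 9 passed at 15 mg/kg and 0 at 0.1 mg/kg, beside 0.116% and 0% of all probe sets. An unadjusted p under 0.05 was found for 2 and 0, beside 12.1% and 6.87% of all probe sets.

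The Cyp2j enzymes are epoxygenases of arachidonic acid, and 0 of their 4 probe sets passed in limma at any dose against vehicle. Of all probe sets 0.934% passed at 50 mg/kg, 0.116% at 15 mg/kg and 0% at 0.1 mg/kg. Only Cyp2j10, at 50 mg/kg, had an unadjusted p under 0.05, beside 13% of all probe sets at that dose. Cyp2j4 had 10.00, 9.89, 9.22, 9.78 and 10.24 log2 units in vehicle livers, 10.07, 10.40, 10.29, 10.05 and 9.01 at 0.1 mg/kg, 10.07, 9.27, 9.74, 10.14 and 10.71 at 15 mg/kg, and 10.80, 10.10, 10.27, 9.70 and 10.28 at 50 mg/kg. The groups overlapped widely, and the lowest and highest arrays of all lay in dosed groups. The change at 50 mg/kg was 0.40 (SE 0.27, 95% interval -0.16 to 0.97, adjusted p = 0.573). Cyp2j3 was read by 2 probe sets. The first, 1370706_a_at, had 6.03, 5.95, 4.98, 5.66 and 6.43 in vehicle livers, 5.83, 5.69, 5.97, 5.58 and 4.53 at 0.1 mg/kg, 6.54, 4.80, 5.67, 6.29 and 7.22 at 15 mg/kg, and 6.53, 5.60, 5.84, 4.77 and 6.58 at 50 mg/kg. The other, 1381074_at, had 4.94, 5.00, 4.08, 4.80 and 5.29 in vehicle livers, 4.92, 4.56, 5.07, 4.94 and 4.24 at 0.1 mg/kg, 5.17, 4.48, 4.66, 5.20 and 5.76 at 15 mg/kg, and 5.40, 4.87, 4.34, 4.42 and 4.99 at 50 mg/kg. The spread within each group covered the differences between groups, and the changes at 50 mg/kg were 0.055 (95% interval -0.79 to 0.90, adjusted p = 0.974) and -0.018 (-0.54 to 0.51, adjusted p = 0.989). Cyp2j10 had 6.45, 6.18, 6.15, 6.16 and 6.16 in vehicle livers, 6.35, 6.32, 6.22, 6.34 and 6.30 at 0.1 mg/kg, 6.49, 6.07, 6.16, 6.61 and 6.42 at 15 mg/kg, and 6.87, 6.20, 6.47, 6.46 and 6.47 at 50 mg/kg. At the highest dose 4 of 5 arrays were above all vehicle arrays. It averaged 6.22 ± 0.13 in vehicle, 6.31 ± 0.06 at 0.1 mg/kg, 6.35 ± 0.23 at 15 mg/kg and 6.49 ± 0.24 at 50 mg/kg (SD, n = 5 each), and its change of 0.27 at 50 mg/kg (95% interval 0.043 to 0.50) missed the threshold (adjusted p = 0.286).

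Cyp2j4 and Cyp2j3, next to each other on the chromosome in the order Cyp2j10, Cyp2j16, Cyp2j4 and Cyp2j3, varied together from array to array. Among the single-symbol probe sets of other genes, the one most like Cyp2j4 over the 20 arrays was Cyp2j3 (1370706_a_at), with Pearson r 0.85 and Spearman rho 0.75, and r 0.93 after each group's mean was taken away. Tbce (r 0.81) and Dnajc4 (r 0.77) came next. The Cyp2j3 probe sets had r 0.88 and rho 0.83 with each other. The arrays lowest in Cyp2j4 in vehicle (9.22), at 0.1 mg/kg (9.01), at 15 mg/kg (9.27) and at 50 mg/kg (9.70) were also those lowest in this Cyp2j3 probe set, at 4.98, 4.53, 4.80 and 4.77. These probe sets come from the same arrays and may share sequence, and whether they cross-hybridise was not tested.

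**Figure D3:**
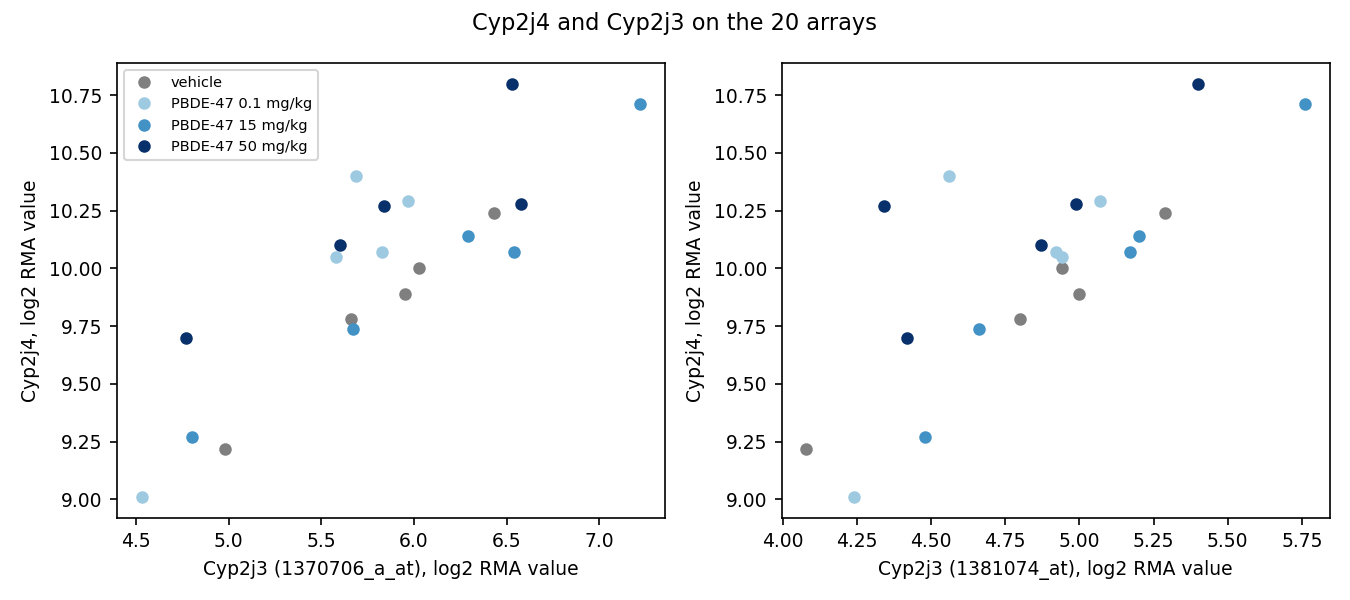
Cyp2j4 (y axis) against the Cyp2j3 probe sets 1370706_a_at (left) and 1381074_at (right), in log2 RMA values, 1 point per array, coloured by dose group. The genes vary together (r 0.85 over the 20 arrays in the left panel) within every dose group, and the colours overlap.

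Enzymes that act beside Cyp2j on arachidonic acid or its epoxides were also followed. Of 14 measured genes, 1 rose and 0 fell at 50 mg/kg, with a median of 0.073. The share of all probe sets that passed was 0.934%. The gene of the 14 that rose was Ephx1, microsomal epoxide hydrolase, which also detoxifies foreign epoxides (log2 change 1.19, SE 0.12, adjusted p = 3.81e-05). Ptgs1, a cyclooxygenase, had a change of -0.40 and did not pass (adjusted p = 0.114).

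Of the 4 members with an unadjusted p under 0.05 at 50 mg/kg, Cyp2t1 had the largest change but did not pass the adjusted test. Its values were 7.20, 7.63, 7.11, 7.19 and 7.31 log2 units in vehicle livers, 7.02, 7.29, 7.12, 7.29 and 7.18 at 0.1 mg/kg, 7.38, 7.47, 7.26, 7.55 and 7.75 at 15 mg/kg, and 7.94, 7.71, 7.12, 7.73 and 7.80 at 50 mg/kg. In the 50 mg/kg group 4 of 5 arrays exceeded the highest vehicle value, and replicate 3, at 7.12, lay among the lowest vehicle values. The change was 0.38 (SE 0.13, 95% interval 0.10 to 0.65, adjusted p = 0.205) against vehicle and 0.48 (95% interval 0.21 to 0.75, adjusted p = 0.127) against 0.1 mg/kg. Without replicate 3 at 50 mg/kg the change against vehicle was 0.51 and passed (adjusted p = 0.0357). Over the 30 fits run that change lay between 0.30 and 0.56.

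The genes whose patterns were most like that of Cyp2t1 over the 20 arrays were Sugct (r 0.81, rho 0.78), Mgst2, a microsomal glutathione transferase (r 0.78, rho 0.76), and Ces2c, a carboxylesterase (r 0.77, rho 0.69). Part of this follows the doses: with group means taken away, r was 0.60, 0.54 and 0.50. Mgst2 rose at 50 mg/kg by 0.33 (adjusted p = 0.028) and Ces2c by 1.72 (adjusted p = 0.0016), while Sugct, at 0.41, did not pass (adjusted p = 0.0652). For Cyp2d3 the nearest were Elf2 (r 0.78), Spdya (r 0.72) and Nf2 (r 0.70), whose changes at 50 mg/kg of 0.09, 0.16 and 0.11 did not pass. These correlations describe 20 arrays, in which likeness was searched over all single-symbol probe sets.

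Cyp2t1 lies at the end of a gene cluster that also holds Cyp2a3. In the RefSeq order the cluster begins with Cyp2s1 and runs through the Cyp2b genes, Cyp2g1, Cyp2a3, Cyp2a1 and Cyp2a2 to Cyp2f4 and Cyp2t1. Cyp2a3 rose by 2.84 log2 units at 50 mg/kg, and it was the only one of the cluster's measured Cyp genes to pass at that dose. At 15 mg/kg Cyp2a3 passed in limma (2.41, adjusted p = 0.0134), and so did Cyp2b21 (0.46, adjusted p = 0.0355). Cyp2b1, Cyp2b2, Cyp2b14, Cyp2b14l1 and Cyp2b15 have no single-symbol probe set, so their response was not read here. The changes of the other measured genes at 50 mg/kg were 0.33 for Cyp2a1, 0.052 for Cyp2a2, 0.11 for Cyp2f4 and 0.38 for Cyp2t1 on one side. On the other side they were 0.059 for Cyp2g1, 0.10 for Cyp2b12, 0.26 for Cyp2b21, 0.078 for Cyp2b3 and -0.063 for Cyp2s1.

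**Figure D4:**
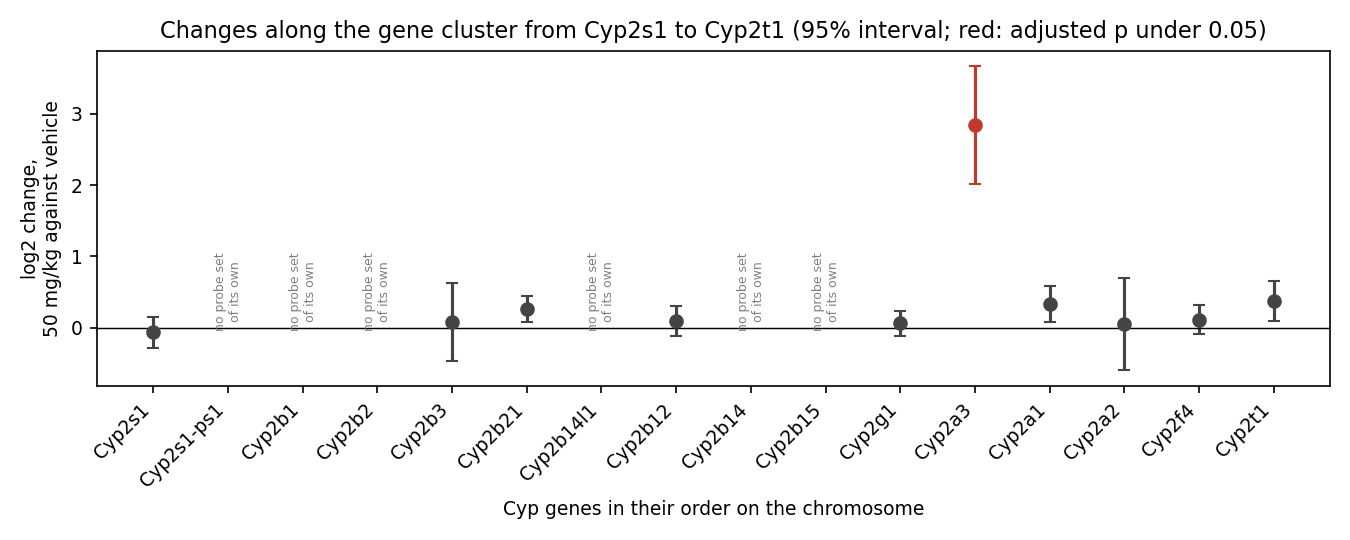
Log2 change at 50 mg/kg against vehicle with its 95% interval (y axis) for the Cyp genes of the cluster in their order on the chromosome (x axis, not to scale), in red where the adjusted p was under 0.05. Cyp2a3 stands at 2.84, and the members Cyp2s1, Cyp2f4 and Cyp2t1 at -0.063, 0.11 and 0.38.

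Cyp2f4 belongs to a subfamily known in rodents from airway cells, where it activates naphthalene. It had 9.17, 9.50, 9.49, 9.28 and 9.54 log2 units in vehicle livers, 9.55, 9.63, 9.34, 9.41 and 9.56 at 0.1 mg/kg, 9.65, 9.43, 9.49, 9.53 and 9.75 at 15 mg/kg, and 9.48, 9.53, 9.37, 9.32 and 9.84 at 50 mg/kg. The groups overlapped. It averaged 9.39 ± 0.16 in vehicle livers, 9.50 ± 0.12 at 0.1 mg/kg, 9.57 ± 0.13 at 15 mg/kg and 9.51 ± 0.20 at 50 mg/kg (SD, n = 5 each), a change of 0.11 at 50 mg/kg (95% interval -0.093 to 0.32, adjusted p = 0.689). Its signal was within 9.17 to 9.84 on the 20 arrays, on which the airway markers stayed low as given above. Cyp2s1, described mainly in epithelia outside the liver, had 5.16, 5.02, 4.84, 4.79 and 5.02 in vehicle livers, 5.05, 4.77, 4.59, 4.70 and 4.97 at 0.1 mg/kg, 4.95, 4.96, 5.22, 5.08 and 4.84 at 15 mg/kg, and 5.08, 5.07, 4.65, 4.80 and 4.92 at 50 mg/kg. Cyp2u1 had 7.11, 6.60, 7.04, 6.54 and 6.89 in vehicle livers, 6.62, 6.88, 7.21, 6.88 and 6.69 at 0.1 mg/kg, 6.94, 6.31, 6.55, 6.83 and 6.90 at 15 mg/kg, and 6.86, 6.77, 6.59, 6.86 and 6.78 at 50 mg/kg. Neither separated any dose from vehicle. Cyp2s1 averaged 4.90 ± 0.18 at 50 mg/kg and 4.97 ± 0.15 in vehicle, and Cyp2u1 averaged 6.77 ± 0.11 at 50 mg/kg and 6.83 ± 0.25 in vehicle (SD, n = 5 each). Their changes were -0.063 (95% interval -0.28 to 0.15, adjusted p = 0.861) and -0.062 (-0.34 to 0.22, adjusted p = 0.899). The Cyp2s1 and Cyp2j3 probe sets and 1387913_at of Cyp2d4 had means under 6, where background takes a larger share of the signal and folds are understated.

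Outside family 2, of the 3 Cyp1 probe sets, 1 rose at 50 mg/kg (Cyp1a1, by 3.46), and of the 4 Cyp3 probe sets, 1 rose (Cyp3a23-3a1, by 0.78). Of the 12 Cyp4 probe sets and the 21 of the remaining Cyp genes, 0 passed in limma, beside 0.934% of all probe sets. The 21 include Cyp2g1, which is of family 2. An unadjusted p under 0.05 was found for 3 and 1, beside 13% of all probe sets. The largest changes of the Cyp4 and the remaining probe sets were 1.45 and 0.63. Both were above the largest change of the other Cyp2 members (0.41). At least 1.5-fold higher were 2 of 3 Cyp1, 1 of 4 Cyp3, 2 of 12 Cyp4 and 1 of 21 remaining probe sets, beside 0.573% of all.

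Of 6 measured transcripts of electron donors and binding partners of P450 enzymes, 2 rose, 0 fell and 4 did not pass at 50 mg/kg. Their median change was 0.22. In this comparison 0.934% of all probe sets passed and 13% had an unadjusted p under 0.05. Por, the cytochrome P450 reductase, rose by 0.82 (SE 0.16, adjusted p = 0.0186) and Cyb5a, a cytochrome b5, by 0.30 (SE 0.055, adjusted p = 0.0095). Of 12 measured liver transcription factors and P450-regulating receptors, 0 passed in limma, with 3 at an unadjusted p under 0.05, the strongest being Ahr, the aryl hydrocarbon receptor (0.66, adjusted p = 0.123) and Foxa1 (0.52, adjusted p = 0.252). Cyp2r1, which is not measured here, is known for the first hydroxylation of vitamin D in liver; of 8 other vitamin D genes 0 passed, with 2 at an unadjusted p under 0.05 (Dhcr7, 0.48, adjusted p = 0.228, and Cubn, 0.24, adjusted p = 0.361).

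Among markers of hepatocyte maturation 0 of 15 measured genes passed in limma at 50 mg/kg, beside 0.934% of all probe sets. An unadjusted p under 0.05 was found for 4 of them, beside 13% of all probe sets. Among these 4 were Ass1 (-0.60, adjusted p = 0.177) and Serpina6 (0.56, adjusted p = 0.183). Of 7 measured Kupffer cell and macrophage genes, 4 fell at 50 mg/kg (C1qb, C1qc, Cd163 and Cd68), and their array mean ranged from 9.21 to 9.59 at 50 mg/kg and from 9.86 to 10.01 in vehicle. In whole liver, fewer macrophages and less RNA per macrophage cannot be told apart, and the part of this shift in the values of the Cyp2 members was not tested.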

How the data were processed

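Liver RNA (100 ng) was amplified and hybridised to Affymetrix rat arrays, per the labels' protocols. The authors deposited log2 values summarised with RMA, per the submitters' processing notes; the RMA version and genome build were not given in the sources used here. Groups came from the sample titles. After 57 control probe sets were left out, 1 model with a mean per group was fitted to 31042 probe sets on 20 arrays with limma 3.58.1 in R 4.3.3 (lmFit, eBayes), in place of the series' R/maanova. P-values are two-sided and were adjusted in limma by the Benjamini-Hochberg method, over all probe sets of a contrast, with calls under 0.05.

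Gene symbols are from GEO's platform annotation, checked by gene ID against RefSeq (GRCr8), which also gave promoters and gene order. The members (by symbol alone) and the gene lists were chosen with earlier results of these data known. A list gene was represented by its brightest single-symbol probe set. Per-array values were due for members called in any contrast, of highest mean, of largest change or of largest SD, and are printed for all 13; similar genes are named for the 3 of largest SD among those with a mean of at least 6. Of the lists, genes called at 50 mg/kg or among the 2 smallest p are named. The comparison of the lowest Cyp2j arrays and the cluster neighbours were chosen after values were seen.

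In simulated data for 50 mg/kg against vehicle over 31042 probe sets, changes were added to probe sets drawn at random. The fit recovered 66% of those changed by 0.5 log2, 92% at a change of 1 and 100% at a change of 2. Noise was independent between probe sets and arrays, so muscle and pancreas variation shared within an array was not simulated. These shares are thus not the recovery for the 13 members. The changes of the 13 members at 50 mg/kg were all smaller than 0.5 in the main fit. Over all fits run, the change reached 0.60 for Cyp2d3, 0.56 for Cyp2t1 and 0.54 for Cyp2j4. Alternatives were blocks, normalisations, filters, variance models, array weights, array exclusions and each array left out. Plots used matplotlib 3.10.9 (Python 3.11.15).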

Additional observations from a re-analysis of the deposited data

Results flagged for a closer look

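In 6 of 52 groups of 5 arrays (13 probe sets in 4 groups), 1 array stood far from the other 4 by Dixon's test at the 95% level, where chance gives about 1 in 20. At 0.1 mg/kg replicate 5 was low in both Cyp2j4 (9.01) and Cyp2j3 (1370706_a_at, 4.53). At 50 mg/kg replicate 3 was low in Cyp2t1 (7.12), and Cyp2t1 passed the test without it. Cyp2d4 (1370329_at) was high in replicate 2 at 0.1 mg/kg (7.59), Cyp2e1 was low in replicate 3 at 15 mg/kg (13.00), and Cyp2j10 was high in replicate 1 of vehicle (6.45). The 4 other arrays of that vehicle group lay between 6.15 and 6.18.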

How the results depend on the processing

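At 50 mg/kg against vehicle the count of called members was 1. It was 0 when arrays with raised muscle or pancreas markers were left out and 0 with only the groups compared, and ranged from 0 to 1 with each array left out. Without replicate 3 at 50 mg/kg the count was also 1, but the called probe set was then Cyp2t1 and not Cyp2d4 (adjusted p = 0.0529). At 50 against 0.1 mg/kg the count was 0, and with each array left out 0 to 1 (Cyp2t1, without replicate 3 at 50 mg/kg). The slope count of 1 became 2 (Cyp2d2 and Cyp2d4) with equal medians, repeated quantile normalization, a mean of at least 6 or array weights, 0 without the muscle and pancreas arrays, and 0 to 2 with each array left out; it was 0 in 12 of those 20 fits. Under the intensity trend with robust shrinkage the slope count was 1, for Cyp2d2. The count of members below the Cyp2a, Cyp2b and Cyp2c mean was 10, and 5 without the muscle and pancreas arrays. With each array left out it was 9 to 12. Set against the median over those probe sets on each array it was 13, but that median of levels was 8.87 at 50 mg/kg and 6.36 in vehicle, a shift of 2.51, against 0.80 for the mean. At 15 and 0.1 mg/kg the count was 0 in every fit run. Cyp2d4 was called in 20 of 30 fits, with an adjusted p of 0.0126 to 0.477, and Cyp2d2 in 0 of 30 (0.0513 to 0.652). With the replicate number as a block, the count at 50 mg/kg was 1 (Cyp2d4, adjusted p = 0.0293). Same-numbered arrays did not deviate together over all probe sets (10 of 30 correlations over 0.1, range -0.36 to 0.29), which gives no sign of pairing. Muscle and pancreas transcripts differ between arrays and enter these correlations, so they cannot decide whether the numbers pair samples. No called change reversed its sign. Over all 13 members, called or not, the sign changed in 11 of 386 fits at 50 mg/kg, 5 of 386 at 15 mg/kg and 15 of 386 at 0.1 mg/kg. Except where stated, the cause was not tested.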
